A study of Mus musculus with 4 samples.

Results

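A set of 9 genes of extracellular ATP and adenosine signalling was followed in group 2 innate lymphoid cells (ILC2s), lymphocytes that reside in tissues, lack antigen receptors and secrete type 2 cytokines. The set was defined by gene symbol (Nt5e, Entpd1, Ada, Adora2a, Adora2b, P2rx4, P2rx7, P2ry10 and P2ry14), and all 9 were found among the 22083 genes with a value. Total RNA had been sequenced from ILC2s purified by cell sorting from the small intestine's lamina propria (SI-ILC2s, 2 libraries) and from white fat of the mesentery (WAT-ILC2s, 2 libraries). All 4 libraries came from C57BL/6 mice of WT genotype aged 9 weeks, without a treatment in the labels. The labels name neither the sort markers nor the number of mice behind a library, so the spread between the libraries of a tissue may be technical.

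Cells that are stressed, activated or dying release ATP, which opens P2X ion channels and activates several P2Y receptors on neighbouring cells. The ecto-enzyme CD39, encoded by Entpd1, removes phosphates from ATP and ADP to give AMP, and CD73, encoded by Nt5e, converts AMP to adenosine. Adenosine acts through receptors coupled to G proteins, of which those encoded by Adora2a and Adora2b raise cyclic AMP, and the first is known for restraining lymphocytes. Adenosine is removed by adenosine deaminase (Ada), by adenosine kinase and by uptake into cells. P2ry10 and P2ry14 are grouped with the nucleotide receptors by sequence, but the first is known for binding lysophosphatidylserine and the second for binding UDP-sugars.

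Values are RPKM, reads scaled to gene length and library size, as the authors deposited them. Each difference is the SI-ILC2 mean less the WAT-ILC2 mean of log2(RPKM + 1), a scale that shrinks the change of weakly expressed genes. A gene was tested if it reached 1 RPKM in at least 2 libraries, and it was called at a Benjamini-Hochberg adjusted p below 0.05 in limma, a linear model fitted to all 8230 tested genes. The value steps of single-exon genes put the depth at 76100000 and 60000000 reads in SI-ILC2s and 55400000 and 65600000 reads in WAT-ILC2s. The 14 ILC2 markers summed to 1353 to 1361 RPKM in SI-ILC2s and 1143 to 1188 RPKM in WAT-ILC2s. Gata3, a transcription factor ILC2s need, had 354 and 377 RPKM in SI-ILC2s, against 338 and 397 RPKM in WAT-ILC2s, but other markers differed between the tissues. Of the 14, 5 were called higher in SI-ILC2s (Il17rb, Icos, Il13, Rora and Kit) and 4 in WAT-ILC2s (Il1rl1, Thy1, Il7r and Ptprc). Thy1 was low in SI-ILC2s, with 2.49 and 5.08 RPKM, against 18.4 and 27.4 RPKM in WAT-ILC2s. In these bulk samples, fewer cells of a type and less RNA per cell cannot be told apart, and neither can the effect of the isolation from each tissue and that of the tissue itself.

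Nt5e and P2rx4 were higher in SI-ILC2s and P2ry10 and P2ry14 were higher in WAT-ILC2s. Ada and Adora2a were tested and not called, and Entpd1, Adora2b and P2rx7 stayed below the filter. Thus 2 of 6 tested members were called higher in SI-ILC2s, where 17.9% of all tested genes were, and 2 of 6 in the other direction, where 29.6% were. In either direction 4 of 6 were called, beside 47.5% of all tested genes, and with 6 genes nothing is read from these shares. Without regard to the test, the pair of SI-ILC2 values exceeded the pair of WAT-ILC2 values in 2 of 6 tested members, beside 29.8% of all tested genes, and the reverse held in 3 of 6, beside 45.9%. Over all genes, 1470 calls were on the SI-ILC2 side and 2436 on the WAT-ILC2 side, so SI-ILC2s held 37.6% of the calls. This share was 51.8% with median-of-ratios scaling, 48.5% with quantile normalization and 28.0% after rescaling to equal column sums. The median difference of all tested genes was -0.15, which median-of-ratios scaling brings to 0.0015 and rescaling to equal column sums to -0.26.

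**Figure D1:**
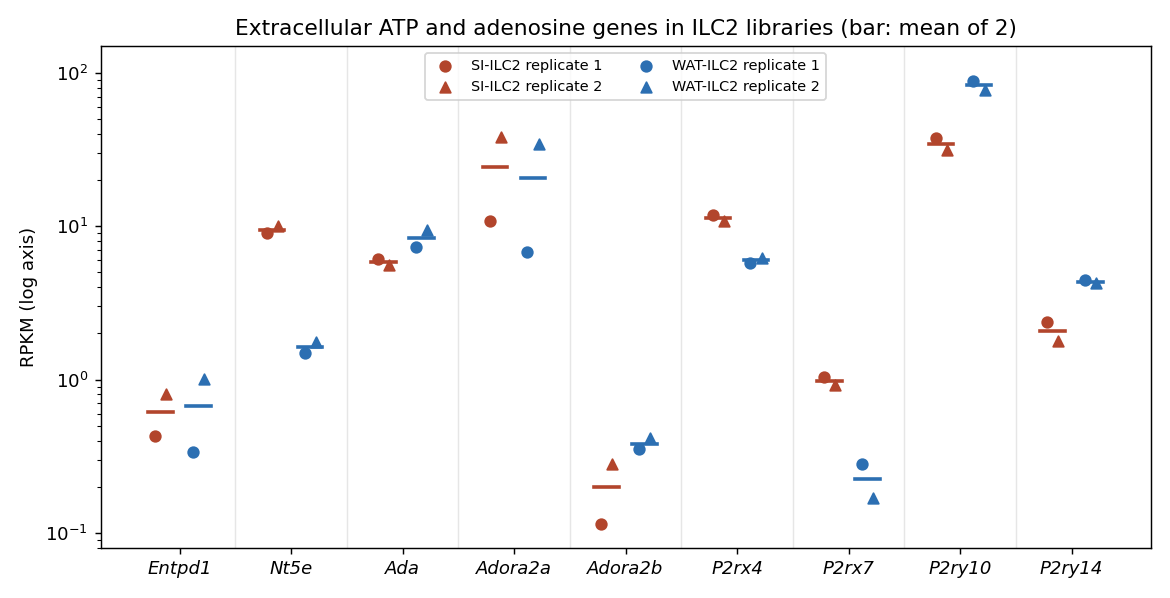
RPKM (log axis) of the 9 genes in each library, with SI-ILC2s (red) left of WAT-ILC2s (blue), circles for replicate 1, triangles for replicate 2 and a bar at the mean of 2 libraries. Nt5e, P2rx4 and P2rx7 lie higher in both SI-ILC2 libraries, P2ry10, P2ry14, Ada and Adora2b lie higher in both WAT-ILC2 libraries, and Adora2a is split by replicate number in both tissues.

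The stretches before a RefSeq transcription start of the 4 called genes are shown because these genes were the ones called between the tissues. Each is the 250 bases before a RefSeq start on GRCm38.p6, read 5′ to 3′ on the gene's strand. They lie at chr9:88327359-88327608 on the plus strand for Nt5e, chr5:122707294-122707543 on the plus strand for P2rx4, chrX:107088242-107088491 on the plus strand for P2ry10 (the first of 2 listed starts) and chr3:59153493-59153742 on the minus strand for P2ry14 (the most upstream of 4 listed starts). The Nt5e window lies wholly inside that gene's GENCODE span, which begins further upstream, and the P2ry14 window lies partly inside its own. For these genes the RefSeq and GENCODE starts thus differ. Capitals mark 6 short motifs searched on both strands. The hypoxia-inducible factor core was searched in the spelling ACGTG alone, so a window without it may still hold another spelling. For the aryl hydrocarbon receptor the core GCGTG was searched, and a match does not assign the site to this factor alone. The half-site of the cyclic AMP response element was taken as TGACG. The nuclear receptor half-site was spelled AGGTCA. For GATA factors the site AGATAA was searched. The TATA box was taken as TATAAA.
Nt5e: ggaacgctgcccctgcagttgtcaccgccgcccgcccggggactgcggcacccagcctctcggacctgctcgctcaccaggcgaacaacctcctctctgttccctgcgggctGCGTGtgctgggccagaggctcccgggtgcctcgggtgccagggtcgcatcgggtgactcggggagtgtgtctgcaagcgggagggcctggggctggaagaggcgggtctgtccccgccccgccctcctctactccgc
P2rx4: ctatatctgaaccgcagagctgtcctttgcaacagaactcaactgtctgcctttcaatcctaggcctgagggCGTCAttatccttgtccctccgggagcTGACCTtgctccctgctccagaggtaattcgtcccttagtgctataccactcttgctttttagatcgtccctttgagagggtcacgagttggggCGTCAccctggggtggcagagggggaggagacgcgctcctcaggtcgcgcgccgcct
P2ry10: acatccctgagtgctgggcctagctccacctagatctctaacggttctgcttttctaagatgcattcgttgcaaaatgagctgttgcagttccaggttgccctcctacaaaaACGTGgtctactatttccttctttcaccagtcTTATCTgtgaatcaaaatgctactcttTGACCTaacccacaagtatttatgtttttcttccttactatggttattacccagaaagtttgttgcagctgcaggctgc
P2ry14: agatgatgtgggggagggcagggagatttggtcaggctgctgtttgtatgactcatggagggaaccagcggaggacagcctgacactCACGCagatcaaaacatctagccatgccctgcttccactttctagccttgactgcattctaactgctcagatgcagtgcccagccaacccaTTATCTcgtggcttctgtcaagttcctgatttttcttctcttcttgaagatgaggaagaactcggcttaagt

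The Nt5e window held GCGTG once, 138 bases before the RefSeq start. In it 72.0% of bases were G or C, more than in 93.1% of all windows. The P2rx4 window held the cyclic AMP half-site at 178 and 57 bases before the start and the nuclear receptor half-site once. The P2ry10 window, where 43.2% of bases were G or C, held ACGTG, the GATA site and the nuclear receptor half-site once each. The P2ry14 window held GCGTG and the GATA site once each. Among 32851 windows of the same length, 16.6% held ACGTG, 28.2% GCGTG and 17.8% the cyclic AMP half-site. The nuclear receptor half-site was in 14%, the GATA site in 9.99% and the TATA box in 12.4%. Different motifs can share bases, and none did in the 4 windows shown. A match of letters describes the window only. RefSeq windows were found for 8 of the 9 genes, the exception being Adora2a.

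Of the 3 enzymes, Nt5e (chromosome 9, 88327197 to 88372092) differed most. Nt5e had 9.02 and 10.01 RPKM in SI-ILC2s, against 1.4997 and 1.76 RPKM in WAT-ILC2s. Both intestinal libraries were high, both fat libraries were low, and the gap between the tissues far exceeded the difference between libraries of a tissue. The means of 9.52 ± 0.700 and 1.63 ± 0.186 RPKM (SD, n = 2 each) are 5.83-fold apart, and the log2 difference was 2.00 (SE 0.147, 95% interval 1.64 to 2.35, adjusted p = 0.00038 in limma). It was the largest difference among the 6 tested members, and it kept its call in all 14 alternative settings, with differences of 1.88 to 2.48.

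Entpd1 (chromosome 19, 40612366 to 40741602), which acts one step before Nt5e, was low in both tissues. It had 0.430 and 0.802 RPKM in SI-ILC2s and 0.334 and 1.004 RPKM in WAT-ILC2s. The ranges overlapped, and in both tissues the library numbered 2 was the higher one. With no filter on low values the difference was -0.03 (SE 0.223, adjusted p = 0.96), so a difference was not detectable at this spread. At the GENCODE exon length and the estimated depths, these values stand for about 183 and 269 reads in SI-ILC2s and about 103 and 368 reads in WAT-ILC2s. Endothelial cells and macrophages are known for Entpd1. The summed level of 7 endothelial markers was 4.74 to 7.11 RPKM in SI-ILC2s and 5.90 to 9.58 RPKM in WAT-ILC2s, and that of 11 macrophage and dendritic cell markers was 2.23 to 4.57 and 7.24 to 9.33 RPKM. Lyz2, with means of 0.482 RPKM in SI-ILC2s and 4.51 RPKM in WAT-ILC2s, was the largest part of the macrophage sum in WAT-ILC2s. Csf1r (0.531 and 0.479 RPKM) and Cd68 (1.56 and 1.53 RPKM) were about level, and Emr1 averaged 0.0592 and 0.523 RPKM. No gene of these lists was at 0 in any library, and the part of these cells in the Entpd1 level was not tested.

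The level of Nt5e was 20.96 and 12.5 times that of Entpd1 in the SI-ILC2 libraries and 4.49 and 1.75 times in the WAT-ILC2 libraries. Both genes are scaled per length, and the ratio lay above 1 in all 4 libraries. The ratio was higher in both SI-ILC2 libraries than in either WAT-ILC2 library.

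Ada (chromosome 2, 163726584 to 163750239), which converts adenosine to inosine, had 6.13 and 5.60 RPKM in SI-ILC2s and 7.35 and 9.43 RPKM in WAT-ILC2s. Both intestinal libraries lay below both fat libraries, but the difference of -0.44 (SE 0.164, 95% interval -0.84 to -0.05) missed the threshold after adjustment (adjusted p = 0.064 in limma). It passed after rescaling to equal column sums (adjusted p = 0.033 in limma). It also passed with a replicate block (0.00092), where a gene's own spread had little weight. With median-of-ratios scaling it did not pass (adjusted p = 0.20). Leaving out 1 library moved the difference between -0.60 and -0.28. Set against Ada, the enzyme that makes adenosine stood at 1.47 and 1.79 times its level in SI-ILC2s and at 0.204 and 0.187 times in WAT-ILC2s. The order of these enzymes was thus opposite in the tissues, with Nt5e above Ada in both SI-ILC2 libraries and below it in both WAT-ILC2 libraries.

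Adora2a (chromosome 10, 75316877 to 75334784), a receptor gene of high affinity for adenosine, was the most abundant adenosine receptor gene. It had 10.8 and 38.0 RPKM in SI-ILC2s and 6.77 and 34.3 RPKM in WAT-ILC2s. The libraries numbered 1 were low and those numbered 2 were high in both tissues, so the tissues overlapped and the means of 24.4 ± 19.2 and 20.5 ± 19.5 RPKM (SD, n = 2 each) did not differ beyond their spread (log2 difference 0.37, 95% interval -1.53 to 2.28, adjusted p = 0.71 in limma). Within each number the SI-ILC2 library was the higher one. The call depended on the setting. With the replicate number as a block, the same difference passed (adjusted p = 0.0012 in limma), but that fit gives a gene's own spread little weight. The difference was 1.47 without WAT-ILC2 replicate 2, -0.72 without WAT-ILC2 replicate 1 and -0.49 without SI-ILC2 replicate 2. These fits leave a tissue with 1 library, so no p-value is given for them.

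This split by number was among the widest of any gene. Replicate 2 exceeded replicate 1 of Adora2a by 1.72 on the log2 scale in SI-ILC2s and by 2.18 in WAT-ILC2s. Only 14 of 8230 tested genes were higher in replicate 2 by more than 1 in both tissues, and Adora2a ranked 3 among them by the smaller of its differences, after Csrp1 and U2af2. Across all tested genes, which are not independent, the difference between numbered libraries in SI-ILC2s and that in WAT-ILC2s had a Pearson correlation of 0.57. The labels do not say what a replicate number stands for, and a shared batch was not tested. Csrp1 and U2af2 were singled out after their values were seen. Apart from Adora2a, no member differed between the libraries of a tissue by more than 0.59.

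**Figure D2:**
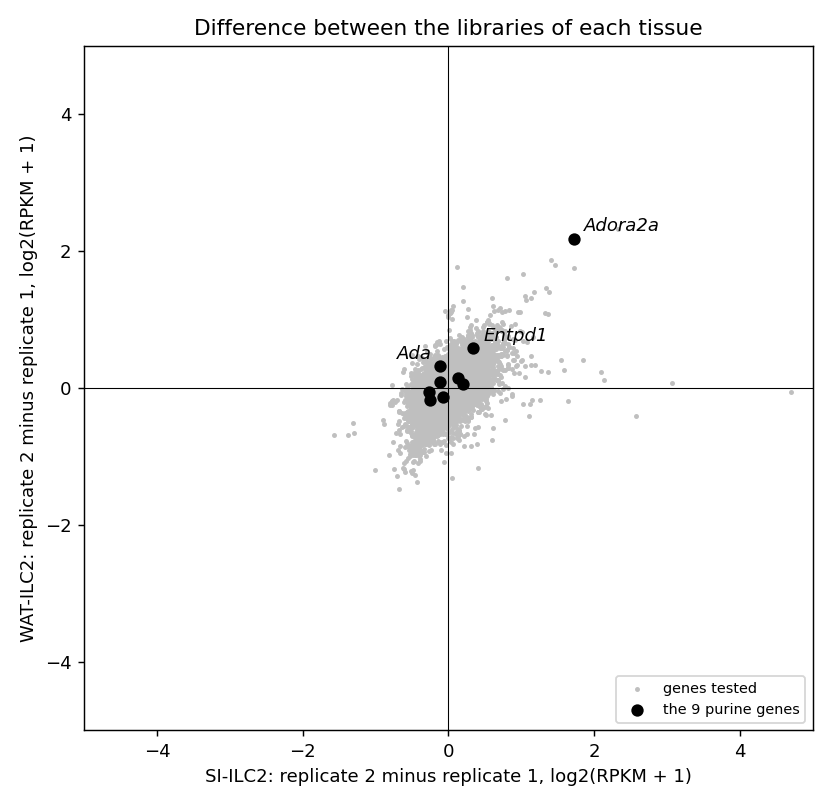
Replicate 2 minus replicate 1 on the log2(RPKM + 1) scale in SI-ILC2s (horizontal axis) and in WAT-ILC2s (vertical axis), with grey points for the 8230 tested genes and black points for the 9 genes. Adora2a stands apart at 1.72 and 2.18, while the other 8 lie within the cloud.

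Adora2b (chromosome 11, 62248984 to 62266453), a receptor gene of low affinity for adenosine, had 0.114 and 0.282 RPKM in SI-ILC2s and 0.351 and 0.412 RPKM in WAT-ILC2s. Both SI-ILC2 libraries were lower, but these values stand for only about 16 and 31 reads in SI-ILC2s and about 36 and 50 reads in WAT-ILC2s. With no filter the difference was -0.21 (SE 0.101) with an adjusted p of 0.23. Adora2a exceeded Adora2b by 94.97 and 135 times in SI-ILC2s and by 19.3 and 83.2 times in WAT-ILC2s. The remaining adenosine receptor genes, Adora1 and Adora3, stayed between 0.0366 and 0.0491 RPKM in all 4 libraries. Adora2a thus had the highest level of the 4 adenosine receptor genes in every library.

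Of the 7 genes of P2X channels, P2rx4 and P2rx7 were the ones that reached 1 RPKM in any library. P2rx4 (chromosome 5, 122707544 to 122729738) had 11.9 and 10.9 RPKM in SI-ILC2s, against 5.79 and 6.19 RPKM in WAT-ILC2s. The tissues did not overlap, and the libraries within each lay close together. The means of 11.4 ± 0.726 and 5.99 ± 0.283 RPKM (SD, n = 2 each) differed 1.90-fold (log2 difference 0.82, SE 0.138, 95% interval 0.49 to 1.16, adjusted p = 0.0045 in limma). The call was kept in all 14 alternatives, with differences of 0.69 to 0.99.

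P2rx7 (chromosome 5, 122643911 to 122691432) encodes the channel that needs high ATP concentrations and is known for triggering the inflammasome in macrophages and death in T cells. It had 1.03 and 0.926 RPKM in SI-ILC2s and 0.280 and 0.169 RPKM in WAT-ILC2s. The intestinal libraries were again both higher, with means of 0.979 ± 0.0752 and 0.224 ± 0.0785 RPKM (SD, n = 2 each) that are 4.37-fold apart. The values stand for about 469 and 332 reads in SI-ILC2s and about 93 and 66 reads in WAT-ILC2s. P2rx7 reached 1 RPKM in 1 library and was therefore not tested. With no filter its difference was 0.69 (SE 0.131) with an adjusted p of 0.014.

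P2rx7 and P2rx4 are neighbours on the plus strand, with 16112 bases between them. The level of P2rx4 was 11.5 and 11.7 times that of P2rx7 in SI-ILC2s and 20.7 and 36.6 times in WAT-ILC2s. Other genes within 100000 bases did not follow them. Anapc5, a subunit gene of the anaphase-promoting complex, had 20.8 and 22.7 RPKM in SI-ILC2s and 41.2 and 43.2 RPKM in WAT-ILC2s, and Camkk2, a calmodulin-dependent kinase kinase gene, had 0.570 and 1.03 RPKM against 1.27 and 1.59 RPKM.

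P2ry10 (chromosome X, 107088492 to 107104974) was the most abundant of the 9 genes by mean in both tissues. It had 37.6 and 31.4 RPKM in SI-ILC2s and 88.3 and 77.9 RPKM in WAT-ILC2s. Both fat libraries lay far above both intestinal ones. The means of 34.5 ± 4.43 and 83.1 ± 7.37 RPKM (SD, n = 2 each) gave a log2 difference of -1.25 (SE 0.162, 95% interval -1.64 to -0.86, adjusted p = 0.0019 in limma), and WAT-ILC2s were 2.41-fold higher. The call held in all 14 alternatives, with differences of -1.40 to -1.06. A paralog, A630033H20Rik (also P2ry10b), had 0.327 and 0.309 RPKM in SI-ILC2s and 0.827 and 0.569 RPKM in WAT-ILC2s, and no source used here states how reads shared by such copies were counted.

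The other lysophosphatidylserine receptor genes did not match P2ry10 in level. Gpr34 had 3.42 and 2.75 RPKM in SI-ILC2s and 4.25 and 3.67 RPKM in WAT-ILC2s and was not called (log2 difference -0.28, adjusted p = 0.18 in limma). Gpr174 had 0.0324 and 0.0240 RPKM in SI-ILC2s and 0.350 and 0.649 RPKM in WAT-ILC2s and was not tested at the filter used. With no filter its difference was -0.54 with an adjusted p of 0.017 in limma.

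P2ry14 (chromosome 3, 59113855 to 59153618) had 2.36 and 1.79 RPKM in SI-ILC2s and 4.46 and 4.25 RPKM in WAT-ILC2s. Both fat libraries were higher, and means of 2.08 ± 0.401 and 4.36 ± 0.148 RPKM (SD, n = 2 each) gave a log2 difference of -0.81 (SE 0.155, 95% interval -1.18 to -0.43, adjusted p = 0.0075 in limma). The call held in all 14 alternatives, with differences of -1.05 to -0.66, and came closest to the threshold without SI-ILC2 replicate 2. The gene lies within Med12l on the opposite strand without shared exon bases, in a row with further receptor genes. Among these, Gpr171, a receptor for the peptide BigLEN, had 45.5 and 35.7 RPKM in SI-ILC2s and 33.1 and 26.5 RPKM in WAT-ILC2s (log2 difference 0.43, adjusted p = 0.097 in limma). It passed without WAT-ILC2 replicate 1 (adjusted p = 0.019) and with median-of-ratios scaling (adjusted p = 0.044), in a range of 5.6e-05, with a replicate block, to 0.47 over 14 alternatives. P2ry12 and P2ry13, the ADP receptor genes of this row, did not exceed 0.053 RPKM in any library.

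The order of the levels differed between the tissues. In SI-ILC2s it ran P2ry10, Adora2a, P2rx4, Nt5e, Ada, P2ry14, P2rx7, Entpd1 and Adora2b, where the Adora2a libraries overlapped those of P2ry10 and those of P2rx4, while P2ry10 lay above P2rx4 in both libraries. In WAT-ILC2s it ran P2ry10, Adora2a, Ada, P2rx4, P2ry14, Nt5e, Entpd1, Adora2b and P2rx7. Here the libraries of Adora2a and Ada overlapped, as did those of Entpd1 and Adora2b, and all other neighbours were apart in both libraries. Nt5e stood at place 4 in SI-ILC2s and at place 6 in WAT-ILC2s, and P2rx7 at place 7 and at place 9.

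The wider extracellular purine list comprised 68 genes with a value, of which 59 are not among the 9. Of the 59 others, 23 were tested, with 2 called on the SI-ILC2 side, beside 17.9% of all tested genes, and 9 on the WAT-ILC2 side, beside 29.6% (median log2 difference -0.28, against -0.15 for all tested genes). Some of these genes were tested only because they were high in 1 tissue, so nothing is read from the counts. Of 8 nucleotide release genes, 5 were not tested. All 3 tested ones were called higher in WAT-ILC2s, beside 29.6% of all tested genes, and with 3 genes nothing is read from this count. Slc17a9, the vesicular nucleotide transporter that loads ATP into secretory vesicles, had 1.49 and 1.97 RPKM in SI-ILC2s and 5.54 and 6.86 RPKM in WAT-ILC2s (log2 difference -1.40, adjusted p = 0.0016 in limma). Panx1, an ATP-permeable channel, had 5.39 and 5.18 RPKM in SI-ILC2s and 7.83 and 7.30 RPKM in WAT-ILC2s, a difference of -0.45 with an adjusted p of 0.037 in limma. Its call was lost without any 1 of the 4 libraries. It was also lost with no filter on low values (adjusted p = 0.072), with median-of-ratios scaling (0.15) and with quantile normalization (0.10). Gja1, a connexin gene abundant in stromal and endothelial cells, had 0.326 and 0.130 RPKM in SI-ILC2s and 2.02 and 2.12 RPKM in WAT-ILC2s, and passed the filter through the WAT-ILC2 libraries alone. The summed level of 6 fibroblast markers was 0.462 to 0.532 RPKM in SI-ILC2s and 4.48 to 9.88 RPKM in WAT-ILC2s, and its part in the Gja1 difference was not tested.

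Of 4 tested enzymes at the cell surface, 3 were called higher in SI-ILC2s, beside 17.9% of all tested genes, and 1 in WAT-ILC2s, beside 29.6%. With so few genes nothing is read from these counts. Enpp4 and Art2b joined Nt5e on the SI-ILC2 side, and Cd38 was on the WAT-ILC2 side. Enpp4, which hydrolyses dinucleotides such as diadenosine triphosphate, had 22.2 and 22.3 RPKM in SI-ILC2s and 8.57 and 6.91 RPKM in WAT-ILC2s (log2 difference 1.42, adjusted p = 0.0011 in limma). Art2b encodes an ADP-ribosyltransferase that, in mouse T cells, uses NAD to modify and open the P2rx7 channel. Art2b had 1.40 and 1.39 RPKM in SI-ILC2s and 0.0827 and 0.227 RPKM in WAT-ILC2s, and it passed the filter through the SI-ILC2 libraries alone, so it had to differ and its call is not used as support. Cd38, which consumes NAD, had 1.23 and 1.54 RPKM in SI-ILC2s and 5.72 and 5.91 RPKM in WAT-ILC2s (log2 difference -1.52, adjusted p = 0.00075 in limma). Entpd2, Entpd3 and Entpd8, the other ATP-hydrolysing surface enzymes of the CD39 family, did not exceed 0.625 RPKM in any library.

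Of 6 other tested genes of adenosine removal and uptake, 2 were called, both higher in WAT-ILC2s, beside 29.6% of all tested genes. Adk, the kinase that returns adenosine to AMP inside the cell, had 0.938 and 0.809 RPKM in SI-ILC2s and 4.11 and 2.99 RPKM in WAT-ILC2s, and passed the filter through the WAT-ILC2 libraries alone. Slc29a1, the equilibrative nucleoside transporter, had 3.52 and 3.72 RPKM in SI-ILC2s and 6.52 and 6.86 RPKM in WAT-ILC2s (log2 difference -0.74, adjusted p = 0.0067 in limma). Slc29a1 shares 275 exon bases with an antisense gene.

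Among 9 tested nucleotidases that act inside the cell, Entpd5, Entpd4 and Entpd6 were called higher in WAT-ILC2s, beside 29.6% of all tested genes, and none was called higher in SI-ILC2s, beside 17.9%. Entpd5, an enzyme of the endoplasmic reticulum, had 0.699 and 1.15 RPKM in SI-ILC2s and 3.04 and 4.12 RPKM in WAT-ILC2s, and would not have passed the filter on its SI-ILC2 libraries alone. The call of Entpd4 was lost without SI-ILC2 replicate 1 and with no filter on low values (adjusted p = 0.052 in limma). That of Entpd6 was lost without either SI-ILC2 library or without WAT-ILC2 replicate 2. It was also lost with no filter (adjusted p = 0.073), with median-of-ratios scaling (0.12) and with quantile normalization (0.086). P2ry1, an ADP receptor gene, had 0.249 and 0.279 RPKM in SI-ILC2s and 0.917 and 1.35 RPKM in WAT-ILC2s, and was not tested at the filter used. With no filter its difference was -0.75 with an adjusted p of 0.019 in limma. Entpd4, Entpd6 and P2ry1 share exon bases with genes on the opposite strand, and no source used here states whether strand was used in counting.

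**Figure D3:**
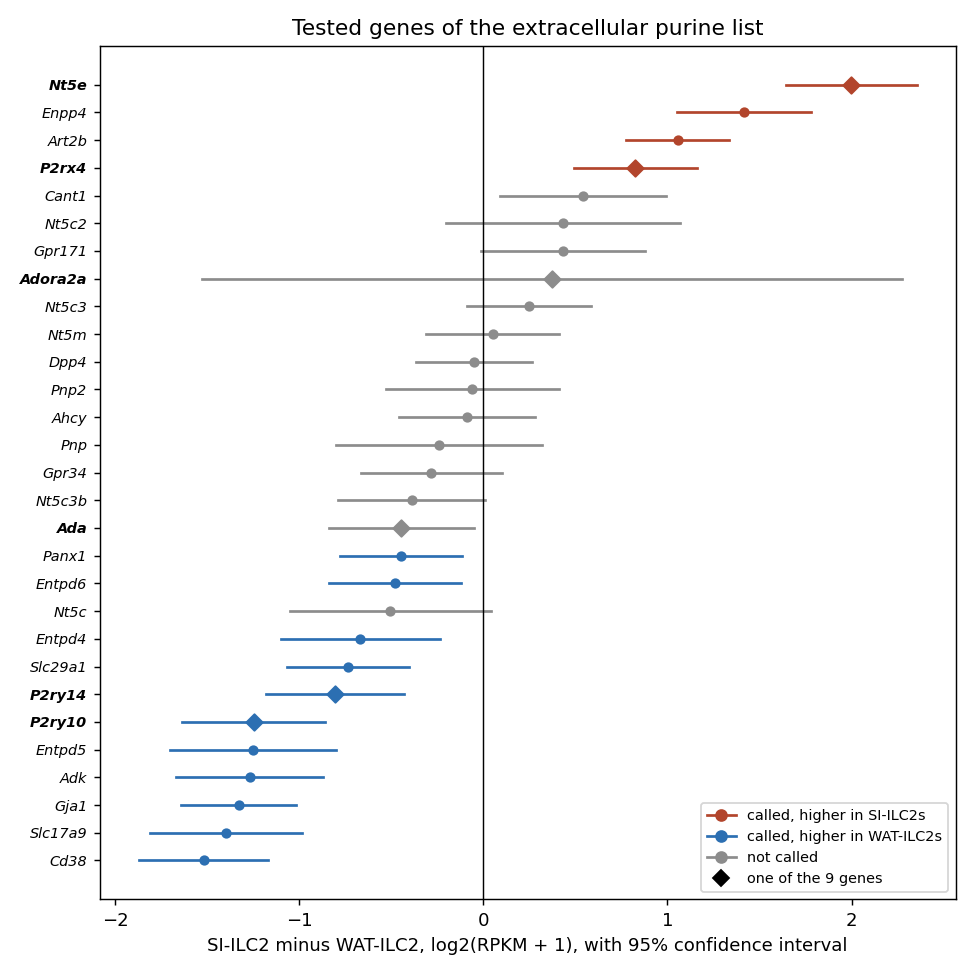
Difference of SI-ILC2s less WAT-ILC2s in log2(RPKM + 1) with its 95% confidence interval for the 29 tested genes of the list, coloured by call, with diamonds and bold names for the 6 tested genes among the 9. Nt5e, Enpp4, Art2b and P2rx4 lie to the right, Cd38, Slc17a9 and Gja1 lie farthest to the left, and Adora2a has the widest interval.

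**Figure D4:**
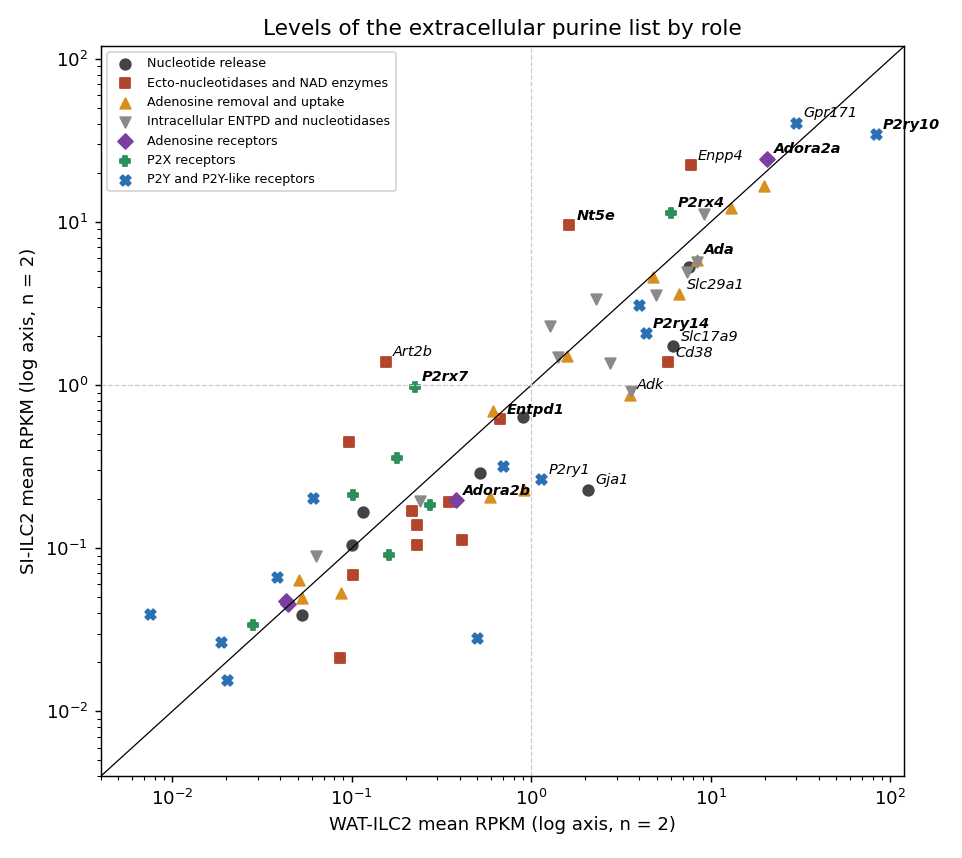
Mean RPKM of the 68 genes in WAT-ILC2s (horizontal, log axis) and SI-ILC2s (vertical, log axis), with a symbol per role, the line of equal levels and dashed lines at 1 RPKM. Nt5e, Enpp4, Art2b and P2rx7 lie above the line and P2ry10, P2ry14, Cd38, Adk and Slc17a9 below it.

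The genes whose 4 log2(RPKM + 1) values lay closest to those of Nt5e were Zhx2, Gprc5a and Lgmn, with root mean square differences of 0.19, 0.19 and 0.21 over 4 libraries. Closest to P2ry10 were Nfkbie, Pim3 and Hmha1, at 0.15, 0.17 and 0.17. With 4 libraries this measures only a shared level and direction.

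Most summed levels of other cells' markers were separate between the tissues, while the intestinal epithelial and endothelial sums overlapped. The summed level of 5 red cell genes was 13.2 to 41.5 RPKM in SI-ILC2s and 88.9 to 140 RPKM in WAT-ILC2s, that of 6 adipocyte genes 0.397 to 0.681 and 4.50 to 5.13 RPKM, that of 8 granulocyte and mast cell genes 0.511 to 0.619 and 1.76 to 2.18 RPKM, and that of 6 T cell genes 6.82 to 8.53 and 12.4 to 23.2 RPKM. The sum of 6 B and plasma cell genes was higher in SI-ILC2s, at 18.9 to 24.7 against 2.61 to 3.15 RPKM, and came from Cd79b and Igj, while Ms4a1 did not exceed 0.0496 RPKM. The sum of 7 intestinal epithelial genes was 5.33 to 11.2 and 8.39 to 8.82 RPKM. Several sums rested mainly on 1 gene. The adipocyte sum in WAT-ILC2s was mostly Fabp4, while Adipoq averaged 0.0920 RPKM in SI-ILC2s and 0.0598 RPKM in WAT-ILC2s. The T cell sum was mostly Cd3g, while Cd3d, Cd4 and Cd5 had slightly higher means in SI-ILC2s. Of the epithelial genes, Epcam averaged 5.36 RPKM in SI-ILC2s and 8.07 RPKM in WAT-ILC2s, and Krt8 averaged 2.28 and 0.282 RPKM. Among the endothelial markers, Pecam1 averaged 4.19 RPKM in SI-ILC2s and 2.50 RPKM in WAT-ILC2s, while the other 6, such as Emcn with 0.142 and 0.967 RPKM, had higher means in WAT-ILC2s. The part of these cells in the levels of the 9 genes was not tested.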

How the data were processed

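Total RNA libraries of sorted ILC2s were analysed, 2 per tissue, grouped by the sample titles. The authors deposited RPKM values, 1 column per library, without pooling. STAR 2.6.0, featureCounts 1.6.0 and the build GRCm38 (mm10) are named, per the submitters' processing notes. No source used here gives the annotation or strand setting. No count model was applied, since RPKM is a scaled value, and it keeps shifts in composition between libraries.

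The fit used limma 3.58.1 under R 4.3.3 on log2(RPKM + 1) values (variance trend, no covariate, all 4 libraries) over the 8230 genes with at least 1 RPKM in at least 2 libraries. P-values were adjusted by Benjamini-Hochberg across these genes and called below 0.05. They rest only on the spread between these libraries, with each gene's variance drawn towards that of the other genes. An exact permutation test of 2 libraries against 2 cannot go below 0.333 (two-sided). Depth was the number of reads at which values of single-exon genes, multiplied by GENCODE M21 length, came closest to whole reads. Within a tolerance of 0.1 read, 82% to 83.1% of values were whole, against 20% by chance. Read numbers given for genes use the GENCODE exon length and are approximate.

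The 9 genes, the purine list and the marker lists were chosen with earlier results of these data known. Named genes were the 9, up to 4 called genes per direction of each role, receptor genes with a mean of at least 1 RPKM, leading genes of the marker lists and the 3 genes closest to Nt5e and to P2ry10. Older symbols served for 3 list genes. Alternatives were 2 other pseudocounts, 2 other filters, 3 scalings, no variance trend, a replicate block, leaving out each library and a combined filter and pseudocount. Python 3.11.15 with pandas 2.3.3 and numpy 2.4.6 handled the tables, and matplotlib 3.10.9 drew the plots.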

Additional observations from a re-analysis of the deposited data

How the results depend on the processing

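The calls of Nt5e, P2rx4, P2ry10 and P2ry14 kept their direction and their side of the threshold in all 14 alternatives. The fits without 1 library and the one with a replicate block are among the 14, and their p-values have the limits given below. Leaving out 1 library moved the difference of Adora2a between -0.72 and 1.47, the count of the 9 genes on the SI-ILC2 side between 2 and 3 and on the WAT-ILC2 side between 2 and 4, and the count over the whole purine list between 4 and 7 and between 8 and 12. In these fits the lone library of a tissue is assumed to vary like the other tissue's libraries. Without a WAT-ILC2 library, a gene's own spread had almost no weight in the fit, so p-values there do not measure it. Over all genes these counts ran from 983 to 1595 for SI-ILC2s and from 1492 (without SI-ILC2 replicate 1) to 2551 for WAT-ILC2s. With a filter of 0.3 RPKM, 17 purine list genes were called higher in WAT-ILC2s, against 11, and also 17 with this filter and a pseudocount of 0.1, an alternative chosen after the data were seen. More genes enter the test under this filter. Of the added calls, Entpd2, Slc29a2, Slc29a3, P2ry1 and Gpr174 passed it through the WAT-ILC2 libraries alone. P2rx7, added on the SI-ILC2 side, passed it through the SI-ILC2 libraries alone. The direction of these genes was thus fixed by the filter. A630033H20Rik, also added on the WAT-ILC2 side, passed it in both tissues (difference -0.36, adjusted p = 0.043 in limma). With no filter on low values it was not called (adjusted p = 0.12 in limma). Nothing is read from the added calls.

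With the replicate block, 2271 genes were called on the SI-ILC2 side and 3430 on the WAT-ILC2 side, and 9 purine list genes, against 4, were called higher in SI-ILC2s. Ada, Adora2a and Gpr171 passed in this fit (adjusted p = 0.00092, 0.0012 and 5.6e-05 in limma). In it, 40.7 of the 41.7 degrees of freedom of a gene's variance came from the other genes. These p-values therefore hardly measure a gene's own spread. The correlation of 0.57 between libraries with the same number is the one given above and not a further result. No label says what a number marks and there are only 2 pairs, so the block was not made part of the reported fit. A shared batch was not tested. Depth limits Adora2b, which rests on about 16 to 50 reads per library.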
